A study of Mus musculus with 2 samples.

Results

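The 9 genes S1pr1, Cd69, Ccr2, Ccr4, Ccr8, Ccr9, Cxcr4, Cxcr6 and Itgae encode surface proteins that act when lymphocytes stay in a tissue, leave it or are drawn into it. They were taken by symbol from the GENCODE vM21 annotation of the mouse genome (GRCm38) and are 9 of its 22028 protein-coding genes. A peak belonged to a gene when it overlapped the gene body or lay within 1000 bp of any annotated transcript start, and a peak within 1000 bp of a start is called a start peak. By this rule the genes held 16 of the 42126 peaks listed for offspring of control mothers (the control list) and 8 of the 51610 peaks listed for offspring of asthmatic mothers (the asthmatic list).

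H3K4me3 was profiled with CATCH-seq, a ChIP-seq protocol for few cells that fragments chromatin with micrococcal nuclease, in about 3000 ILC2s per library. ILC2s are innate lymphocytes of the airway that answer epithelial alarm signals with type 2 cytokines, and the comparison asked whether asthma of the mother during pregnancy left a chromatin difference in these cells of the adult offspring. Both groups were C57BL/6J mice 8 weeks old, and their lung ILC2s were sorted as CD45+, Lin-, CD90.2+, ST2+ cells. Each group was 1 library from the offspring of 1 dam, so no spread between samples exists and no test between groups was possible.

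Control mothers had been sensitized with alum in PBS and given PBS into the nose between gestation days 4 and 17. Asthmatic mothers had been sensitized with alum and 100 µg of ovalbumin (OVA) and given repeated doses of 500 µg of OVA into the nose over the same days. All dams were bred to untreated males, and the labels name no treatment of the offspring themselves.

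Lymphocytes leave a tissue by following sphingosine-1-phosphate (S1P), which is abundant in blood and lymph and is sensed by the receptor S1PR1. CD69 binds S1PR1 in the same cell and takes it off the surface, so that CD69 marks cells held in place, while chemokine receptors guide entry and position and the integrin made of CD103 (Itgae) and the beta 7 chain (Itgb7) anchors lymphocytes to E-cadherin of epithelium. H3K4me3 lies over the first nucleosomes of genes that are transcribed or ready to be, most broadly where CG dinucleotides are dense.

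The starts of the receptor genes are unlike in sequence. RefSeq promoter windows of GRCm38.p6 (250 bases before the start and the first 50 after it) matched 6 of the 9 genes, namely Ccr2, Ccr4, Ccr8, Ccr9, Cxcr4 and Cxcr6. The 250 bases before the start are printed for a gene with a peak in both lists and a CG-rich start (Cxcr4, chr1:128592300-128592549, minus strand), one with a peak in both lists and a CG-poor start (Ccr8, chr9:120091883-120092132, plus strand) and 2 of the 3 receptor genes with a control peak alone, all of them with CG-poor starts (Ccr4, chr9:114496545-114496794, minus strand, and Cxcr6, chr9:123806227-123806476, plus strand). The last line is the stretch of Ccr8 intron 1 that both lists marked (chr9:120092646-120092846, plus strand). All are on GRCm38, 5′ to 3′, and capitals mark CG dinucleotides.
Cxcr4: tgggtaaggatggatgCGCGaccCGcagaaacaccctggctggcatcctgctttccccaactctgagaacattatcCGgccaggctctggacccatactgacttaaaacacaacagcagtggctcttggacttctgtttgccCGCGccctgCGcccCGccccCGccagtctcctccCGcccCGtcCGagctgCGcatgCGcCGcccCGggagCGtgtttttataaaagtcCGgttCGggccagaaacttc
Ccr8: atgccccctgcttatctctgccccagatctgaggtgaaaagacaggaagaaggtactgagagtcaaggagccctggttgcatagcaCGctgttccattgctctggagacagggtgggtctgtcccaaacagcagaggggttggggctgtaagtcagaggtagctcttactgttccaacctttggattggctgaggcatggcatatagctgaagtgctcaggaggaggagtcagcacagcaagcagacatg
Ccr4: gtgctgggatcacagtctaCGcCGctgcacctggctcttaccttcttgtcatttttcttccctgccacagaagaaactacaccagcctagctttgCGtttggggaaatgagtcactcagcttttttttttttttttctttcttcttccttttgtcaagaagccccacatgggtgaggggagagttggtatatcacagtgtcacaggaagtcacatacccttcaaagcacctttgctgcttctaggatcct
Cxcr6: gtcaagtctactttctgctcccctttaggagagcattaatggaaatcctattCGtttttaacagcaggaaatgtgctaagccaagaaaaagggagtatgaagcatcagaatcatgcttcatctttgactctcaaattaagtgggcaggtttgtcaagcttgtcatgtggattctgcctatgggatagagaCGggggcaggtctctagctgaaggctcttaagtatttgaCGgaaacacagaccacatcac
Ccr8 peak: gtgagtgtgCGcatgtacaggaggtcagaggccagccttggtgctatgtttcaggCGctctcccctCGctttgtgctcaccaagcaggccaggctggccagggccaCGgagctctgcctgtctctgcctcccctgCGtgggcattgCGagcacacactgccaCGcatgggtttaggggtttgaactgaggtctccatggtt

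Of the 250 bases shown, Cxcr4 had 19 CG dinucleotides, Ccr4 and Cxcr6 had 3 each and Ccr8 had 1. The Ccr8 stretch inside the gene had 7 in 201 bases. Over the whole windows of 300 bases Cxcr4 had 20, and 26.5% of the 32851 windows in the table had at least as many. The other 5 windows had 1 to 4, and the CG-poorest was that of Ccr2.

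Over all genes, start peaks were far more frequent at CG-rich starts. Of 4277 protein-coding genes with at most 4 CG dinucleotides in their window, 6.94% had a start peak in the control list and 5.59% in the asthmatic list. Of 6663 genes with at least 20, 84.6% and 72.7% had one. Of the 5 receptors with at most 4, Ccr2, Ccr4 and Ccr8 had a start peak in the control list, Cxcr6 had none, and Ccr9 had one only at a start far from its window. Ccr8 alone of these 5 had one in the asthmatic list.

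H3K4me3 peaks were found at all 9 genes in the control list and at 4 of them (Ccr8, Ccr9, Cxcr4 and Itgae) in the asthmatic list. S1pr1, Cd69, Ccr2, Ccr4 and Cxcr6 had a peak in the control list alone, and no gene had one in the asthmatic list alone. Peaks covered 5849 bp of the genes in the control list and 2753 bp in the asthmatic list, a ratio of 0.471, while the median over all genes with a peak was 674 bp and 459 bp and all peaks together covered 16.2 Mb and 15.4 Mb. Start peaks alone covered 2810 bp and 819 bp of the set. Over all protein-coding genes, 58.0% had a peak by the same rule in the control list and 51.7% in the asthmatic list. A peak in the control list alone was seen at 8.79% of all genes, against 5 of these 9, and a peak in the asthmatic list alone at 2.51%, against none of them.

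At transcript starts the difference was of the same direction. Start peaks were listed at 7 of the 9 genes in the control list and at 2, Ccr8 and Cxcr4, in the asthmatic list, where the shares over all genes were 50.9% and 41.9%. A start peak in the control list alone was held by 5 of the 9 genes (S1pr1, Cd69, Ccr2, Ccr4 and Ccr9) and by 9.71% of all genes. A start peak in the asthmatic list alone was held by none of the 9 and by 0.722% of all genes. The control start peaks of the genes ranked between percentiles 0.586 and 85.7 of their list, and of the 6454 genes whose strongest control start peak fell in that range 30.2% had no asthmatic start peak, beside 5 of these 7. That range does not match genes for strength. The 5 lay at percentiles 0.586 to 53.0, while the median over all genes with a control start peak was 82.7. Within 500 bp of a start the asthmatic list held 1 gene of the set, Cxcr4, and 40.6% of all genes. Among the 10000 strongest peaks of each list, 2 genes of the set had a start peak in the control list and 0 in the asthmatic list, beside 32.2% and 9.32% of all genes. By the rule that also takes gene bodies, these strongest peaks marked 3 and 1 genes of the set and 35.2% and 15.6% of all genes.

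**Figure D1:**
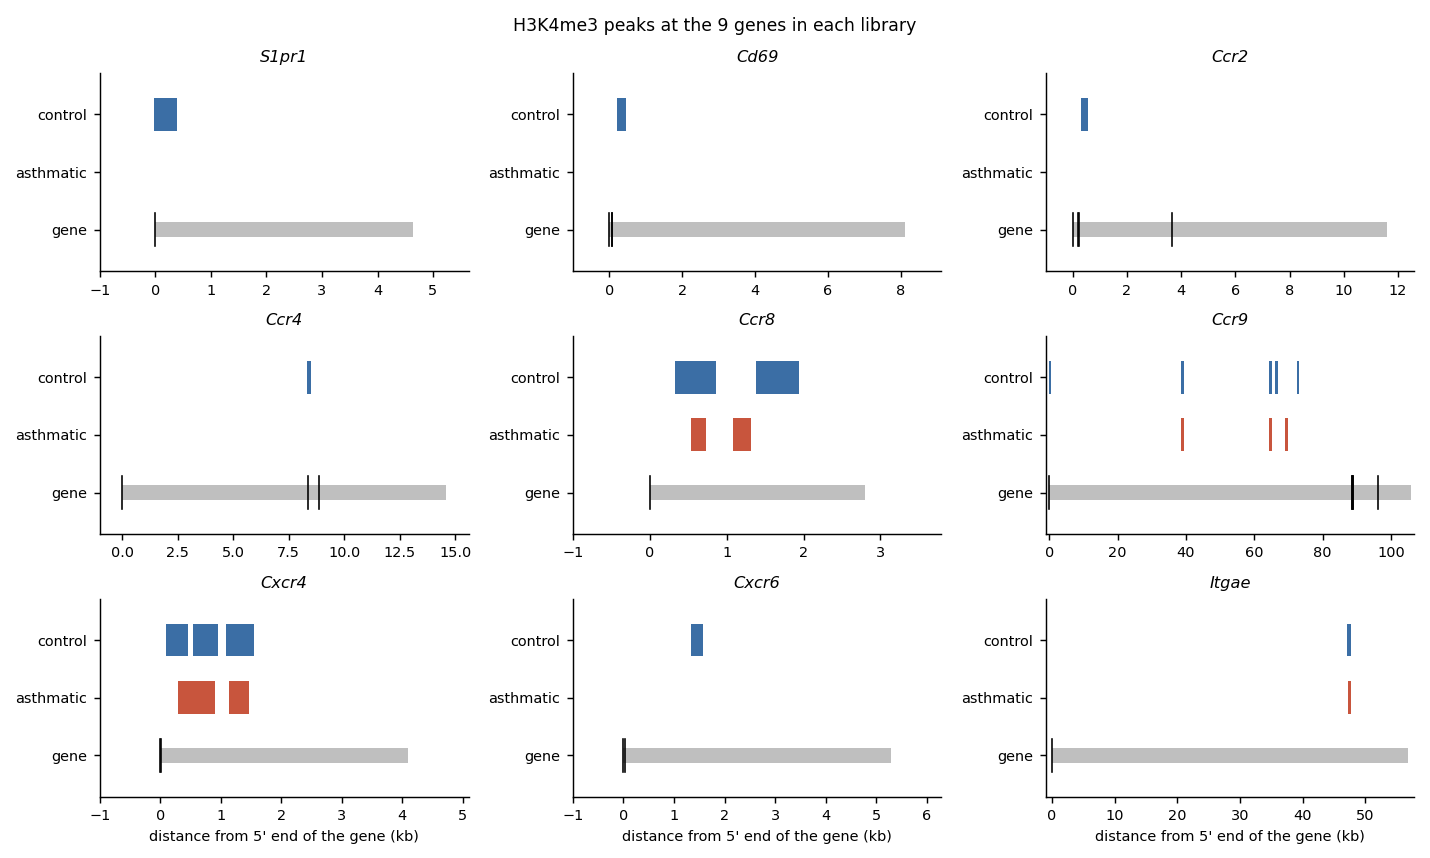
Peaks of the control list (blue) and of the asthmatic list (red) at each of the 9 genes, along the distance from the 5′ end of the gene in kb; the grey bar is the gene body and black ticks are annotated transcript starts. In the panels of long genes narrow peaks are drawn wider than to scale so that they can be seen. S1pr1, Cd69, Ccr2, Ccr4 and Cxcr6 have blue peaks only, while Ccr8, Ccr9, Cxcr4 and Itgae have both.

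The study states that it called no peaks on its ChIP-seq data and did not check their quality, so how the deposited lists were made is unknown. The lists differed as a whole. The asthmatic list held more and narrower peaks, with a median width of 249 bp against 315 bp and a smallest width of 156 bp against 190 bp. The numbers of fragments behind a peak were solved from the fold and p of each peak, taking a Poisson background without a control library. They gave a lowest background of 1.83 fragments in the control library and 1.57 in the asthmatic library, and a median of 21 and 18 fragments at a summit. With the smallest peak width of each list taken as the fragment length, these backgrounds were 96.1 and 100.4 fragments per 10 kb. No scaling of fold, p and q across the libraries is given in the sources used here, so strength is given as a percentile of −log10 q within a list, and intervals of fragment numbers (exact Poisson, 95%) cover counting error only. Start peaks stood at 9 of 11 ILC2 marker genes in the control list and 7 of 11 in the asthmatic list, where Gata3 and Il7r lacked one, and Icos and Klrg1 lacked one in both. None of the 5 T cell, 3 B cell, 4 macrophage, 3 neutrophil, 2 endothelial and 2 fibroblast markers had a start peak in either list, while 2 macrophage markers and 1 endothelial marker had a peak in the gene body in each list. Of 3 epithelial markers Epcam had one in the control list alone, at percentile 85.6, and Sftpc and Scgb1a1 had none, and the part of other cells in the results was not tested.

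Among the genes of S1P-guided exit, both the receptor and the protein that takes it off the surface carried a peak in the control list and none in the asthmatic list. S1pr1, the exit receptor, had 1 control peak of 422 bp at chr3:115714677-115715098. It spanned the only annotated start, its summit lay 286 bp into the gene in the untranslated first exon, and it rested on 17 fragments (9.90 to 27.2). Its −log10 q of 8.04 put it at percentile 53.0, close to the middle of the control list. The peak was CG-rich, with 26 CG dinucleotides, and the start of the long noncoding RNA Gm9889, transcribed the opposite way, lay 364 bp from the summit. The asthmatic list had no peak within 40288 bp of the S1pr1 gene.

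Cd69, which encodes the retention marker, had 1 narrower control peak of 257 bp at chr6:129274974-129275230. Its summit lay 265 bp after the nearest annotated start, in intron 1 of the main transcript and within the first exon of a transcript that retains this intron. The peak rested on 16 fragments (9.15 to 26.0) and ranked at percentile 24.2 with a −log10 q of 5.59. It held 2 CG dinucleotides, against 26 at S1pr1. The nearest asthmatic peak was 29499 bp from the gene.

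Of 10 other genes of the S1P pathway, 7 had a start peak in the control list and 5 in the asthmatic list. Those in the control list alone were at Sphk1, a kinase that makes S1P (percentile 28.2), and Klf2, a transcription factor that drives S1pr1 expression (percentile 60.7). The strongest was Sgpl1, the lyase that degrades S1P, at percentile 98.2 of the control list and 82.9 of the asthmatic list. S1pr3, S1pr5 and Spns2 had no start peak in either list.

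The 6 chemokine receptors fell into those with peaks in both lists (Ccr8, Cxcr4 and Ccr9) and those with a control peak alone (Ccr2, Ccr4 and Cxcr6). Ccr8, a receptor of CCL1 and CCL8 found on type 2 and skin-homing lymphocytes, had the strongest start peak of the 9 genes in the control list. It covered 527 bp of intron 1 at chr9:120092445-120092971, with 40 fragments (28.6 to 54.5) at a summit 629 bp after the start, a −log10 q of 14.7 and percentile 85.7. The asthmatic start peak was the 201 bp printed above. It lay wholly inside the control peak, with 18 fragments (10.7 to 28.4), a −log10 q of 6.25 and percentile 38.4. The asthmatic summit was 599 bp after the start, so both summits lay inside the gene rather than on its start.

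A second Ccr8 peak further into the gene did not coincide between the lists. The control peak covered 570 bp at chr9:120093490-120094059 (30 fragments, percentile 53.7), and the asthmatic peak covered 235 bp at chr9:120093198-120093432 (14 fragments, percentile 4.32). They were 58 bp apart, and 78.7% of the asthmatic peak was repeat-masked sequence. In all, peaks covered 1097 bp of Ccr8 in the control list and 436 bp in the asthmatic list.

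Cxcr4, the receptor of CXCL12, had 3 control peaks and 2 asthmatic peaks, all downstream of the start with their summits in intron 1. The strongest control peak, 417 bp at chr1:128591338-128591754, had 32 fragments (21.9 to 45.2) at a summit 703 bp after the start, a −log10 q of 13.9 and percentile 83.4. The control peak next to it on the side of the start, 363 bp at chr1:128591840-128592202, ranked at percentile 49.4 and the one further into the gene, 458 bp at chr1:128590751-128591208, at 45.6. A single asthmatic peak of 618 bp at chr1:128591385-128592002 reached across the gap between both control start peaks. It was the widest of the 8 asthmatic peaks, yet it rested on 15 fragments (8.40 to 24.7) and ranked at percentile 39.7. The inner asthmatic peak, 336 bp at chr1:128590824-128591159, lay wholly within its control counterpart and ranked at percentile 2.02.

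Peaks covered 1238 bp of Cxcr4 in the control list and 954 bp in the asthmatic list. Cxcr4 and Ccr8 were the only genes of the set with a start peak in both lists. Their strongest start peaks ranked in the upper part of the control list and below the middle of the asthmatic list, Cxcr4 at a CG-rich start and Ccr8 at a CG-poor one. Over all genes with a start peak, the median percentile of the strongest was 82.7 in the control list and 60.6 in the asthmatic list.

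Ccr9, the receptor of CCL25 that directs lymphocytes to gut epithelium, had 5 control and 3 asthmatic peaks, none of them at the start from which RefSeq reads the gene (chr9:123767211). All lay along a longer GENCODE transcript that begins far upstream, at chr9:123678439. The one start peak, 370 bp at chr9:123678498-123678867 in the control list (16 fragments, percentile 51.2), had its summit 27 bp from the start of Slc6a20a, a transporter gene read the other way, and lay near the start of the noncoding Gm17200. A peak in both lists at the start of Lztfl1, a gene of ciliary transport inside the long Ccr9 transcript, ranked high in both, at percentile 84.2 of the control list and 86.7 of the asthmatic list. The other 3 control and 2 asthmatic peaks were wholly repeat-masked, and the 75 bases around their summits occurred 101 to 1242 times in the genome. No peak in either list thus stood at the start that RefSeq gives Ccr9.

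Ccr2, Ccr4 and Cxcr6 had 1 small control peak each and no asthmatic peak. Ccr4, the receptor of CCL17 and CCL22 and a receptor of type 2 lymphocytes, had the summit closest to a start, in a peak of 197 bp at chr9:114496395-114496591 that spanned a start, the summit lying 43 bp after the start of 1 of its 3 annotated transcripts. It rested on 17 fragments (9.90 to 27.2) and ranked at percentile 45.9, and its width was near the smallest of the control list. The nearest asthmatic peak was 88585 bp away, at the start of Glb1.

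Ccr2, the receptor of CCL2 on monocytes and some lymphocytes, had the weakest control peak of the set. It covered 257 bp at chr9:124102254-124102510, within the untranslated first exon of 1 transcript and intron 1 of others, with 16 fragments (9.15 to 26.0), a −log10 q of 3.08 and percentile 0.586. Its fold was 3.13, beside 4.55 at Cd69 with the same number of fragments. The local background was 233 fragments per 10 kb at Ccr2 and 144 at Cd69. The nearest asthmatic peak was 80942 bp away, at Ccr3.

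Cxcr6, the receptor of CXCL16 on resident lymphocytes, had a control peak of 236 bp at chr9:123807807-123808042. Its edge was 1308 bp from the nearest start, so it was no start peak, and it lay in intron 1 of Cxcr6 and inside Fyco1, a larger gene on the other strand. It rested on 19 fragments (11.4 to 29.7) and ranked at percentile 19.8. The nearest asthmatic peak was 14445 bp from the gene.

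**Figure D2:**
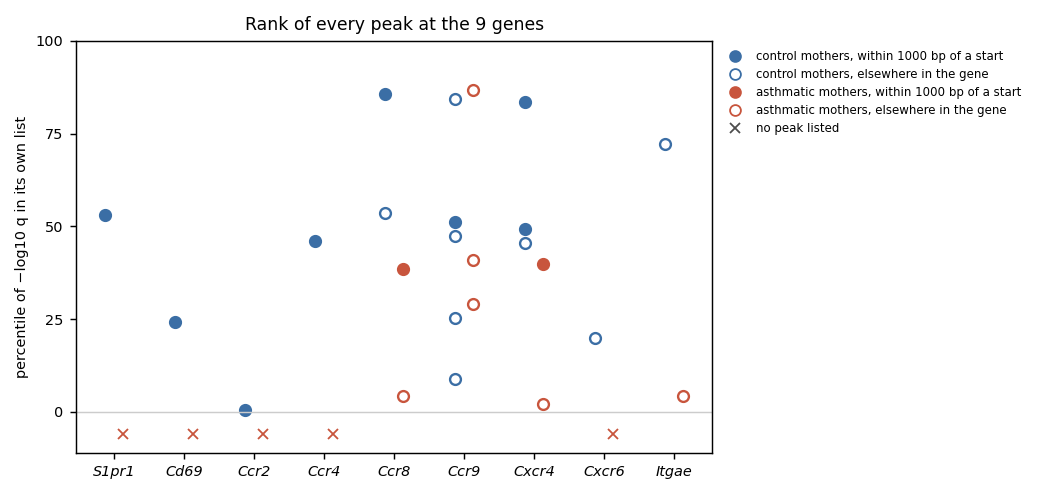
Percentile of −log10 q of every peak at the 9 genes within its own list (0 weakest, 100 strongest); filled circles are start peaks, open circles other peaks in the gene, and a cross marks a gene with no peak in that list. Control start peaks (blue) lie between 0.586 and 85.7, both asthmatic start peaks (red) at 38.4 and 39.7, and 5 genes have a red cross.

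Itgae, the alpha chain that pairs with beta 7 to hold cells at epithelium, had no peak at its own start in either list. It had 1 peak in each list, in intron 26, at the start of Haspin, a kinase gene that lies within Itgae on the other strand. Their summits were 47511 bp (control) and 47411 bp (asthmatic) from the Itgae start. The control peak covered 669 bp at chr11:73137649-73138317 (22 fragments, percentile 72.3), and the asthmatic peak covered 290 bp inside it (10 fragments, percentile 4.32). Itgb7, its partner, had a start peak in both lists, at percentile 85.7 of the control list and 61.9 of the asthmatic list.

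Itgb7 belonged to a list of 9 other integrin and adhesion genes, of which the same 7 had start peaks in both lists and none in 1 list alone. The strongest were Itgb2, the beta chain of LFA-1, in the control list (percentile 86.1) and Itgb1 in the asthmatic list (77.7). Of 14 other chemokine receptors only Ccr3, the eotaxin receptor, and Ccrl2 had a start peak, in both lists. Of 11 genes for ligands of the set, 3 had a start peak in the control list and 2 in the asthmatic list. Ccl25 was the strongest in both, at percentiles 94.0 and 81.1, and Cdh1, which encodes E-cadherin, was marked in the control list alone (percentile 60.7).

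Genes that regulate retention or relay receptor signals were marked at 10 of 11 starts in the control list and at 6 of 11 in the asthmatic list. Those in the control list alone were Prdm1, a transcription factor of resident lymphocytes (percentile 60.6), Rgs1, which dampens chemokine receptor signalling (61.0), Gpr183, an oxysterol receptor that positions lymphocytes (36.1), and Dock2, which drives lymphocyte movement (78.1). Grk2, the kinase that desensitizes S1PR1 and chemokine receptors, was the strongest in both lists, at percentile 91.2 of the control list and, at another of its annotated starts, 97.0 of the asthmatic list. Zfp683, which encodes the residency factor Hobit, had none in either list. No gene of these 5 lists had a start peak in the asthmatic list alone.

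**Figure D3:**
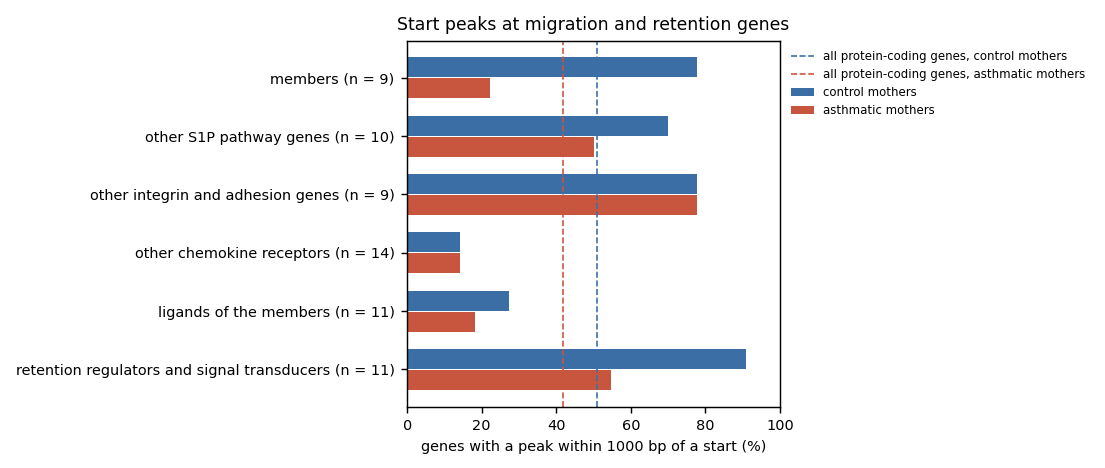
Share of genes with a peak within 1000 bp of a transcript start, in percent, for the 9 genes and 5 lists of related genes, in the control list (blue) and the asthmatic list (red); dashed lines are the shares over all protein-coding genes, 50.9% and 41.9%. The bars are of equal length for integrin and adhesion genes and for other chemokine receptors, and the blue bar is longer for the other groups.

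All neighbours on the chromosome outside the set with a control start peak had an asthmatic one as well except Slc6a20a at the upstream Ccr9 start. Dph5 beside S1pr1, Clec2d beside Cd69, Ccr3 beside Ccr2, Glb1 beside Ccr4, Slc25a38 beside Ccr8, Dars beside Cxcr4, Ncbp3 beside Itgae and Fyco1 around Cxcr6 had one in both lists. Their ranks still differed: Dph5 was at percentile 95.3 of the control list and 11.6 of the asthmatic list, Clec2d at 57.7 and 7.74, and Slc25a38 at 73.0 and 76.9. Cx3cr1, Xcr1 and Trim71, which also adjoin the receptors, had no start peak in either list.

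Across the set, peaks of the control list covered more of every gene. The median over all genes with a peak was also larger in the control list, 674 bp against 459 bp. The share of all genes with more control coverage is not given here. The strongest peak of a gene had a median percentile of 53.0 over the 9 genes in the control list and 39.1 over the 4 genes with one in the asthmatic list, and the medians over all protein-coding genes with a peak were 81.6 and 66.4. These medians cover unlike sets of genes. Over Ccr8, Ccr9, Cxcr4 and Itgae, the 4 genes with a peak in both lists, each measure took the peak of a gene that ranked highest by it. The control and asthmatic medians were 83.8 and 39.1 by −log10 q, 70.7 and 43.3 by fold, 89.6 and 39.4 by fragments and 79.0 and 76.2 by width. For Ccr9 a wholly repeat-masked peak was taken by fragments in both lists and by width in the asthmatic list. By −log10 q the peak of Ccr9 was that at the Lztfl1 start (percentiles 84.2 and 86.7). The peak of Itgae was that at the Haspin start. Of the 16 control peaks 7 overlapped an asthmatic peak, as did 71.8% of all control peaks, and of the 8 asthmatic peaks 6 overlapped a control peak, as did 60.9% of all asthmatic peaks. With an overlap of at least 50% of both peaks, 4 control and 4 asthmatic peaks were shared, beside 56.0% and 45.7% of all peaks. With the peaks near the start of another gene left out, start peaks remained at 5 genes in the control list (Cd69, Ccr2, Ccr4, Ccr8 and Cxcr4) and at 2 in the asthmatic list (Ccr8 and Cxcr4), beside 33.3% and 26.9% of all genes. All 10 start peaks had their summit downstream of the nearest start of their own gene, and the share over all start peaks is not given here.

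**Figure D4:**
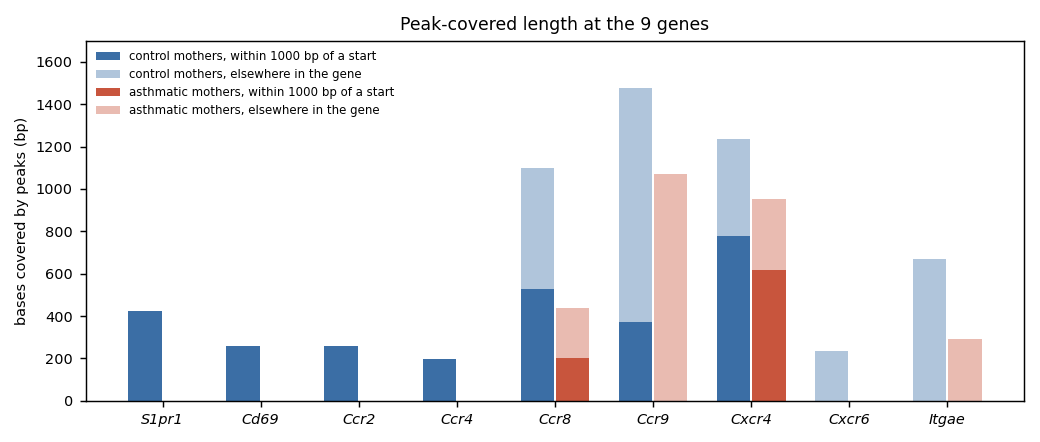
Bases covered by peaks at each of the 9 genes in bp, in the control list (blue) and the asthmatic list (red); dark parts are start peaks and pale parts are other peaks in the gene. The blue bar is the longer at every gene, from 197 bp at Ccr4 to 1476 bp at Ccr9. Over all genes with a peak the median was 674 bp in the control list and 459 bp in the asthmatic list.

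The 5 genes with a control peak alone had 16 to 19 fragments at their summits, below the list's median of 21, and the fewest at any listed summit were 9 in the control list and 8 in the asthmatic list. These numbers are solved values that were not scaled between the libraries, so those of the 2 lists stand side by side without a test. The lists used here give no fragment number where no peak is listed.

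**Figure D5:**
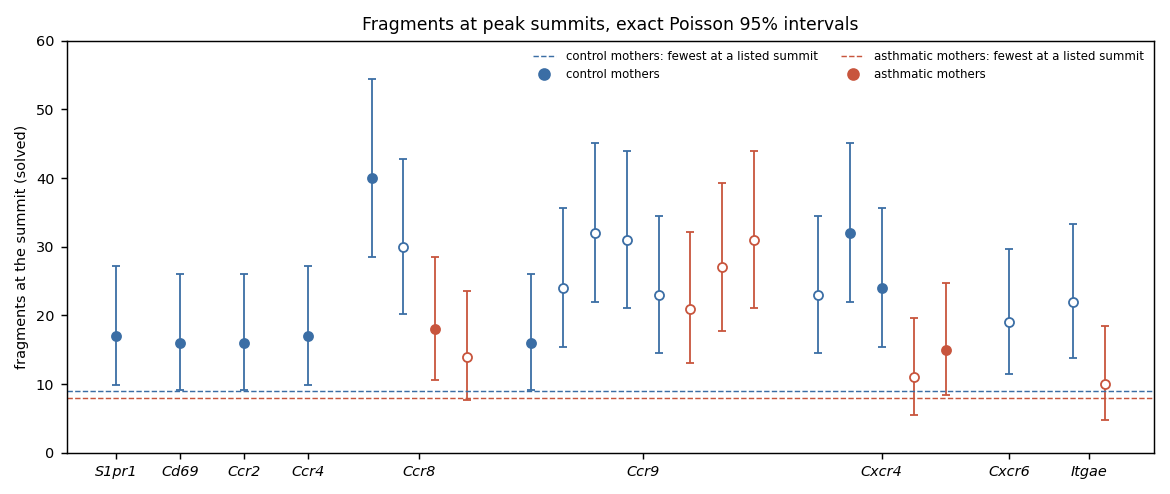
Fragments at the summit of every peak at the 9 genes, solved from fold and p, with exact Poisson 95% intervals; filled circles are start peaks, open circles other peaks, and dashed lines are the fewest fragments at any listed summit, 9 in the control list (blue) and 8 in the asthmatic list (red). The genes with blue points alone, S1pr1, Cd69, Ccr2, Ccr4 and Cxcr6, have 16 to 19 fragments.

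The windows of the 6 receptors with a RefSeq start were searched on both strands for motifs of factors known in lymphocytes. The KLF motif (CACCC) was in 4 of 6 windows and in 57.5% of all windows, the ETS motif (GGAAG) in 3 and 71.4%, and the E-box (CANNTG) in 5 and 72.3%. The GATA motif (AGATAA or TGATAA) was in the windows of Ccr8 and Ccr2 and in 18.6% of all, the RUNX motif (TGTGGT) in that of Cxcr6 and 16.8%, and the AP-1 motif (TGANTCA) in that of Ccr4 and 7.81%. A TATA box (TATAAA) stood in the Cxcr4 window alone, with matches on both strands that overlap, and in 13.6% of all windows. The glucocorticoid response element (ACANNNTGT) was in none of the 6 and in 6.85% of all windows. These are matches of letters, and none of these motifs was in every window of Ccr8, Ccr9 and Cxcr4 and in no window of Ccr2, Ccr4 and Cxcr6.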

How the data were processed

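Lung ILC2s of the offspring of control and of asthmatic mothers gave 1 H3K4me3 library per group. The authors trimmed the reads with Trim Galore and Cutadapt, mapped them with Bowtie 2 to GRCm38 and dropped duplicates by Sambamba. A peak list was deposited per library, although the study's reporting summary states that it called no peaks on these data. The caller, its threshold and whether the input library made from part of each lysate served as control are not given in the sources used here. In 99.98% of control and 99.998% of asthmatic peaks the deposited score equals −log10 q times 10 without its decimals. The authors' fold is the ratio by which the summit exceeds the caller's background, and the deposited −log10 p and −log10 q are p-value and q-value of each peak against it. Coverage tracks were not used here.

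Peaks were assigned to GENCODE vM21 genes as stated in the report, with positions counted from 1, and shared peaks overlap by at least 1 bp. Percentiles are mean ranks of −log10 q within a list. Fragments at a summit were solved from fold and p (99.99% of peaks gave a whole number within 0.001 in −log10 p). With 1 library per group no test was made. Values of related genes are named only for start peaks in 1 list alone, the strongest gene of a list and the members' neighbours. Itgb7, Ccrl2, Zfp683, S1pr3, S1pr5, Spns2 and single markers were named after their values were seen. The genes and lists were chosen with earlier results of these data known. Alternatives changed the distance to a start, the peak threshold, the overlap and the ranking. Scripts ran in Python 3.11.15 with numpy 2.4.6, pandas 2.3.3 and scipy 1.17.1 and were tested on simulated data.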

Additional observations from a re-analysis of the deposited data

How the results depend on the processing

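No paired analysis was possible because each group held a single library. Under other settings 32 values moved little (counts and the length ratio by at most 1.5 times, percentiles within their binomial interval) and 14 moved further. A move of a median from 53.0 to 56.1 fell outside that interval. It is thus too narrow for medians over so few genes and does not measure how stable they are. With the 10000 strongest peaks of each list alone, 3 genes had a peak in the control list and 1 in the asthmatic list (35.2% and 15.6% of all genes), and 2 and 0 had a start peak. Within 500 bp of a start the asthmatic list marked 1 gene in place of 2. An overlap of at least 50% of both peaks left 4 of the 7 shared control peaks, beside 56.0% of all control peaks. The asthmatic to control ratio of covered length, 0.471, became 0.506 with peaks at most 1000 bp apart joined. It became 0.573 with each length divided by the smallest peak width of its list. The median percentiles of 53.0 (control list) and 39.1 (asthmatic list) became 56.1 and 43.3 when peaks were ranked by fold, 61.0 and 76.2 by width and 34.4 and 35.1 among start peaks, and the control value became 37.6 by fragments. Each ranking took the peak of a gene that ranked highest by it. These medians cover up to 9 genes in the control list and 4 in the asthmatic list. Over the 4 genes with a peak in both lists the control median was 83.8, and it was the higher under every ranking. By −log10 q, however, Ccr9 and Itgae entered by peaks at the starts of Lztfl1 and Haspin. Ccr9 ranked higher in the asthmatic list, at percentile 86.7 against 84.2. The setting of these 4 genes and the count without peaks near the starts of other genes were chosen after seeing the data. The lists hold no values where no peak was called, so a weaker signal and an absent one cannot be told apart, and 1 library per group leaves the difference between dams, sorts and libraries within every comparison.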
